A study of Bos taurus with 40 samples.

Results

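The genes described here were chosen by 2 differences between diets in bovine liver. Relative to bulls fed ad libitum (ADLIB), their mean level was higher in bulls under dietary restriction (RES) and then lower in bulls re-alimented after that restriction. For each gene, the mean of log2(normalised value + 1) in ADLIB was subtracted from that in RES, once in each period. A gene was a member when the Period 1 difference was from 0.4 to below 1 and the Period 2 difference was -0.25 or less, with a mean level below 1000 CPM over the 40 animals, where CPM is the count scaled to 1000000 reads on genes and is not adjusted for gene length. A total of 115 of the 12063 genes in both periods' normalised tables met this rule. The rule also left out 7 identifiers, of which 0 would otherwise have been members, and 0 further genes were kept out by the level limit alone.

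All animals were purebred male Holstein Friesian cattle on a diet of 70% concentrate and 30% grass silage. RES bulls were restricted for 125 days to gain 0.6 kg per day (Period 1) and then had ad libitum access to feed for 55 days (Period 2), whereas ADLIB bulls had ad libitum access throughout. Liver was sampled from 10 RES and 10 ADLIB bulls on day 125 of Period 1, and from 10 of each on day 55 of Period 2. The labels call the samples biopsies, while the study's methods describe tissue taken after slaughter, and animals of the 2 periods were treated here as different animals. The tables hold unique reads counted per Ensembl gene of the UMD3.1 bovine genome, and between 8656866 and 15520237 reads per animal were counted on genes.

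The liver takes up nutrients absorbed from the gut, stores and releases glucose, makes most plasma proteins and lipoproteins, and converts surplus amino acid nitrogen to urea. It shrinks when feed intake falls and regrows on re-feeding. The faster gain of previously restricted cattle once feed is freely available is known as compensatory growth. The tables identify genes by Ensembl identifiers alone and 0 of the 24616 identifiers matched the reference table, so members are described by their values, 4 of them are printed by identifier, and the functions of the members are not given. For the same reason liver and other cell type markers could not be checked, and whether a lower value reflects fewer cells of a type or less RNA per cell cannot be told apart in bulk tissue.

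The members' Period 1 difference had a median of 0.52 on the log2 scale (range 0.40 to 0.98), beside a median of 0.01 over all 12063 genes. The Period 2 difference had a median of -0.33 (range -1.22 to -0.25), also beside a median of 0.01 over all genes. The rise in Period 1 was 0.5 or more in 65 members and 0.75 or more in 11. The Period 2 difference was -0.5 or less in 26 members and -1 or less in 4, and in 21 members it was larger in size than the Period 1 difference. These values chose the members and are given without a test.

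Most of the 115 lay close to a limit of the rule relative to the spread between animals. The standard error of the difference had a median of 0.15 over the members in Period 1 and 0.16 in Period 2, compared with 0.12 in each period over all genes. The Period 1 difference was within 1 standard error of the lower limit in 72 members. The Period 2 difference was within 1 standard error of its limit in 83. The 2 members nearest inside the Period 1 limit were both at 0.40, and so were the 2 genes just outside it. At the upper limit the nearest members were at 0.98 and 0.93 and the nearest genes outside at 1.00 and 1.03. At the Period 2 limit, the nearest members were at -0.253 and -0.255, and the nearest genes outside were both at -0.25. The 2 members nearest the level limit had mean levels of 701 and 529 CPM.

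Among the 564 genes whose Period 1 difference lay in the same window and whose level was below the limit, 20.4% had a Period 2 difference of -0.25 or less and 13.8% had one of 0.25 or more. Over all 12063 genes the shares were 6.15% and 8.66%. Genes in the mirrored window, lower in RES in Period 1 by the same amounts, numbered 657, and 10.2% of them were at -0.25 or less in Period 2 and 11.7% at 0.25 or more. These shares differed between levels. Below 10 CPM, 10.8% of the 268 genes in the window were members and 19.8% were at 0.25 or more. From 10 to 100 CPM the shares were 27.5% and 8.7% of 207 genes, and from 100 to 1000 CPM they were 32.6% and 7.87% of 89 genes. Shares over all genes below the level limit also shifted with level. From the lowest to the highest level, 5.5%, 5.68% and 11.8% of them were at -0.25 or less. At 0.25 or more the shares were 12.7%, 6.15% and 4.27%. The members divided into 29 below 10 CPM, 57 from 10 to 100 and 29 at 100 or above, with a median of 34.6 CPM compared with 13.3 over all genes. Normalised values for each period were scaled separately, and these shares are counts with no test.

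**Figure D1:**
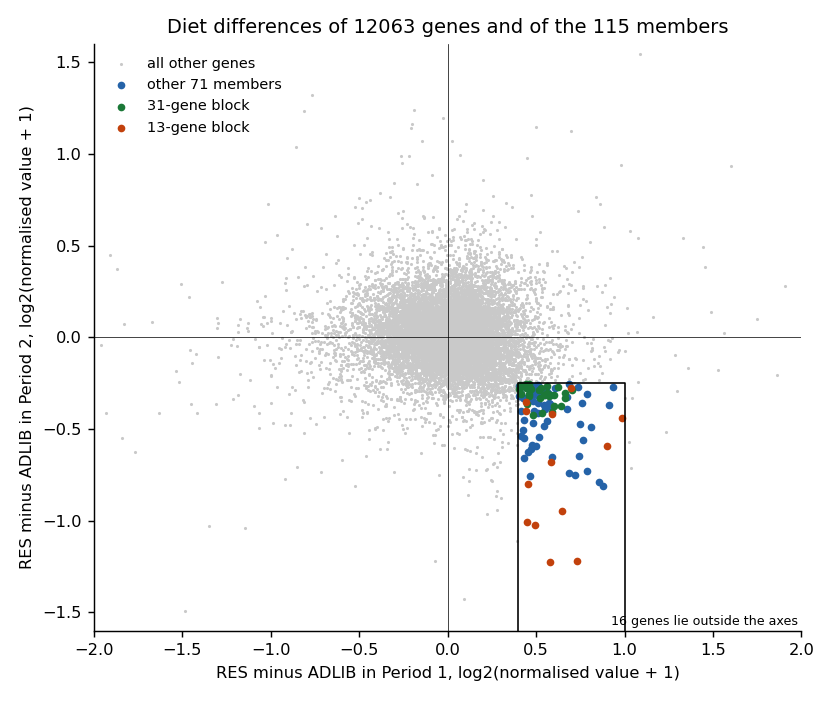
Difference between RES and ADLIB in Period 1 (horizontal axis) and Period 2 (vertical axis), each as the difference of means of log2(normalised value + 1), with 1 point per gene. The black outline is the window of the rule, coloured points are the 115 members by block, grey points are other genes, and 16 genes lie outside the axes. The 31 members of the larger block sit close under the upper edge of the window, whereas the lowest points belong to the 13-gene block.

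ENSBTAG00000022028 had the largest Period 1 difference of the members. Its normalised value ranged from 1.63 to 6.32 (median 3.83) in RES and from 0.538 to 2.50 (median 1.39) in ADLIB in Period 1. In Period 2 it ranged from 0.397 to 4.38 (median 2.58) in RES and from 1.15 to 8.91 (median 3.88) in ADLIB. In Period 1, 7 of 10 RES animals were above every ADLIB animal, whereas in Period 2 the groups overlapped and 1 RES animal was below every ADLIB animal. The differences were 0.98 ± 0.20 (SE, n = 10 per diet) and -0.44 ± 0.28, the latter being -0.26 within library numbers. It had between 4 and 102 reads per animal, so the pseudocount lowers its differences. Its Period 1 difference passed the upper limit of the rule with a pseudocount of 0.5 (1.16) and when scaled by total reads (1.05). The same held for medians in place of means (1.01) and for log2 CPM with TMM normalisation over 40 animals (1.33). Leaving out some single animals also took it past that limit, to 1.08 without RES replicate 2 of Period 1.

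ENSBTAG00000017592 had the second largest Period 1 difference, 0.93 ± 0.18 (SE, n = 10 per diet). In Period 1 its normalised value was 7.57 to 16.6 (median 13.2) in RES and 3.16 to 11.3 (median 6.65) in ADLIB, and 8 RES animals exceeded every ADLIB animal. In Period 2 it was 3.91 to 21.7 (median 8.81) in RES and 4.62 to 22.2 (median 12.1) in ADLIB. These ranges almost coincided, and the Period 2 difference of -0.27 was smaller than its standard error of 0.29. In Period 2 it was -0.15 without RES replicate 4, -0.17 without RES replicate 5 and -0.16 without ADLIB replicate 7. It also missed the limit without RES replicate 1 or 6, or without ADLIB replicate 2, 4, 5 or 6. It further missed the limit of the rule when scaled by total reads (-0.23), with a pseudocount of 2 (-0.24) and within library numbers (-0.18), and was -0.41 with medians in place of means. The Period 1 difference passed its upper limit when scaled by total reads (1.02) and as log2 CPM with TMM normalisation over 40 animals (1.03). With the percentage of reads counted on genes as a covariate it was 1.09.

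ENSBTAG00000007662 had the lowest Period 2 difference and the highest count of the members, at a mean of 701 CPM. In Period 2 its normalised value was 416 to 2386 (median 1300.2) in ADLIB and 165 to 1174 (median 423) in RES. All 10 RES animals were below the ADLIB median, and 5 were below every ADLIB animal. The difference was -1.22 ± 0.40 (SE, n = 10 per diet), a 2.34-fold lower geometric mean of the value + 1 in RES. In Period 1 it was 253 to 911 (median 637) in RES and 196 to 702 (median 411) in ADLIB, a difference of 0.58 ± 0.25 with overlapping groups. Animals were more spread in Period 2, with a SD on the log2 scale of 0.89 in RES and 0.91 in ADLIB, compared with 0.60 and 0.54 in Period 1.

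ENSBTAG00000031797 followed a similar course at a mean of 88.5 CPM. Its normalised value in Period 2 was 57.4 to 321 (median 168) in ADLIB and 20.7 to 141 (median 54.9) in RES, a difference of -1.22 ± 0.40 (SE, n = 10 per diet). In Period 1 it was 32.3 to 110 (median 84.7) in RES and 22.9 to 91.7 (median 47.3) in ADLIB, a difference of 0.73 ± 0.26. Once group means were removed, its deviations followed those of ENSBTAG00000007662 closely across the 40 animals (Pearson r = 0.99, Spearman rho = 0.98). Both genes were read from the same library of each animal with the same scaling factor, and the value is a description.

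**Figure D2:**
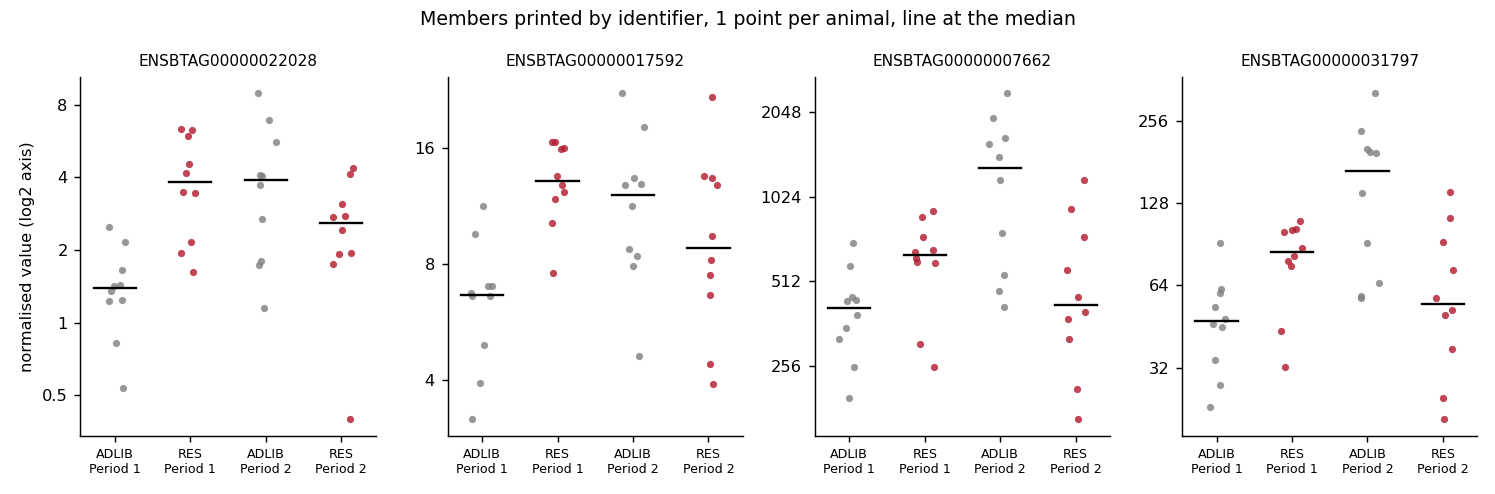
Normalised value of the 4 members printed by identifier in each animal, on a log2 axis with a separate range for each gene. Grey points are ADLIB, red points are RES, and lines are medians of 10 animals. For the first 2 genes the separation of the diets is greater in Period 1, whereas for the last 2 it is greater in Period 2.

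Among all 115 members, RES animals were mostly on 1 side of the ADLIB median. In Period 1, 8 or more of the 10 RES animals were above the ADLIB median in 107 members, and in Period 2, 8 or more were below it in 87. The matching shares of all genes were not counted, and the rule itself favours both counts. Every RES animal was above every ADLIB animal in Period 1 in 11 members, beside 0.307% of all genes. In Period 2, RES was below every ADLIB animal in 0 members, and in 0.0% of all genes. The mean log2 level over the members was 5.15 to 5.52 per animal in RES and 4.60 to 4.93 in ADLIB in Period 1, without overlap. In Period 2 it was 4.42 to 4.86 in RES and 4.83 to 5.38 in ADLIB, with a slight overlap. Since the genes were selected on these differences, the separation of the means was fixed in direction by the rule.

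**Figure D3:**
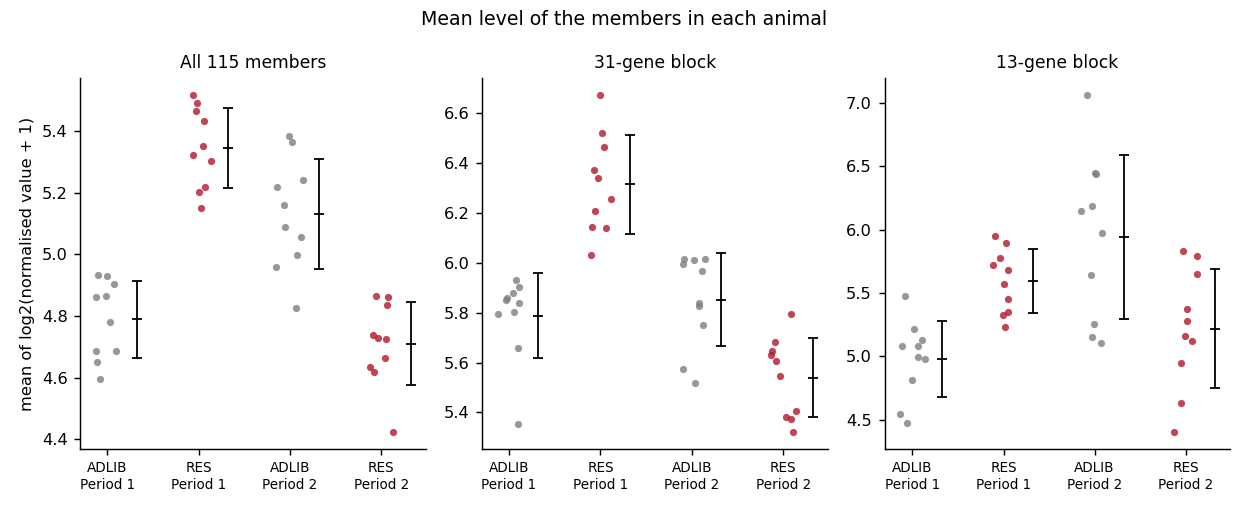
Mean of log2(normalised value + 1) in each animal over all 115 members, over the 31-gene block and over the 13-gene block, with vertical axes that differ between panels. Points are animals (grey ADLIB, red RES) and bars are mean ± SD of 10 animals, with the means of the 31-gene block at 6.32 in RES and 5.79 in ADLIB in Period 1 and 5.54 and 5.85 in Period 2. The 13-gene block is highest and most spread in ADLIB in Period 2.

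The read counts were tested over all genes with edgeR's quasi-likelihood test, at a Benjamini-Hochberg false discovery rate (FDR) threshold of 0.05. In each period a log2 fold change of at least 0.32 in size was also required, and the interaction of diet and period needed the FDR only. A gene entered a fit when none of its animals had fewer than 4 reads, which applied to 111 of the 115 members in Period 1, 113 in Period 2 and 111 in the interaction. A total of 76 members were called higher in RES in Period 1, beside 5.09% of all genes tested. When the fit included each animal's percentage of reads counted on genes, 44 were called, beside 2.11% of all genes. In Period 2, 0 members were called lower, beside 0.0% of all genes. At an unadjusted p under 0.05, 74 members were lower in RES in Period 2, beside 5.7% of all genes. By comparison, the exact test of edgeR with tagwise dispersions and DESeq2 each called 10 members lower in Period 2, beside 0.197% and 0.238% of all genes. The ratio of RES to ADLIB was smaller in Period 2 than in Period 1 by the interaction test in 86 members, beside 5.83% of all genes. A Period 2 difference of -0.25 or less, itself a condition of the rule, was met by 6.15% of all genes. The rule used each of these contrasts, so nothing is read from the members' counts.

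The rule sets how far the changes between periods differ between the diets, but not how much of that lay in each diet. For this comparison all 40 animals were placed on 1 scale, log2 CPM with TMM normalisation. From Period 1 to Period 2 the median member changed by -0.80 in RES and by 0.12 in ADLIB, beside medians of 0.02 and 0.00 over all genes. A total of 73 members were lower in RES and higher in ADLIB in Period 2, 40 were lower in both, and 2 were higher in both. Over all 12063 genes these numbered 2208, 3550 and 3717. The change in RES was the larger in 91 members, and in 7841 of all genes. RES in Period 1 was the highest of the 4 groups in 93 members and ADLIB in Period 2 in the other 22. For all genes these shares were 32.8% and 20.8%. The lowest group was RES in Period 2 in 89 members and ADLIB in Period 1 in the other 26, beside 26.4% and 21.3% of all genes. The signs required by the rule left no other group as the highest or the lowest. They also barred a rise in RES with a fall in ADLIB. Selection on a high RES mean and a low ADLIB mean in Period 1, and on the reverse in Period 2, itself favours such changes. The periods also differ in the age of the animals, so age and diet history cannot be told apart between periods.

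**Figure D4:**
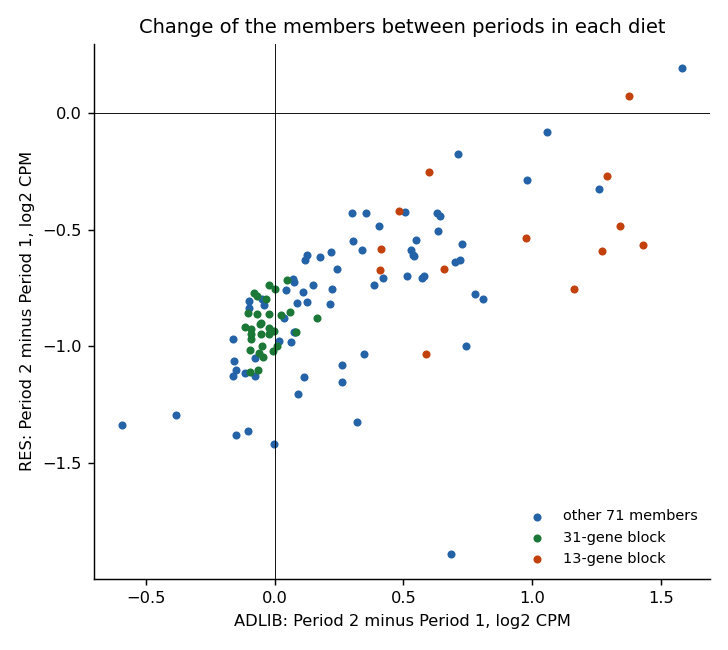
Change of each member from Period 1 to Period 2 in ADLIB (horizontal axis) and in RES (vertical axis), both as differences of mean log2 CPM, with 1 point per member coloured by block. The 31-gene block is near 0 in ADLIB and low in RES, with medians of -0.05 and -0.92. The 13-gene block lies to the right, with medians of 0.98 and -0.56.

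The rule used group means, which carry the deviations of single animals, so genes that deviate together can be chosen together and the correlations below are not independent of the choice. When each gene's deviations from its group means were correlated across the 40 animals, the median Pearson r over the 6555 pairs of members was 0.11, beside 0.00 over all pairs of genes. An r above 0.5 was found in 8.76% of member pairs and in 1.65% of all pairs. The median was 0.13 within RES and 0.06 within ADLIB in Period 1, and 0.12 and 0.22 in Period 2. Average linkage of these correlations, stopped at a mean r of 0.4, gave 1 block of 31 members and 1 of 13. The blocks were defined from these animals and receive no test.

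The 31-gene block had a median r of 0.59 between its members and a median level of 60.0 CPM. Its Period 1 differences were 0.40 to 0.70 (median 0.53) and its Period 2 differences were -0.42 to -0.25 (median -0.31). The median SD between animals was 0.24 and 0.21 in RES and ADLIB in Period 1 and 0.20 and 0.22 in Period 2. Over all genes, whose median level was lower at 13.3 CPM, it was 0.27 and 0.24 in Period 1 and 0.26 and 0.25 in Period 2. The median level in ADLIB was 5.85 log2 CPM in Period 1 and 5.83 in Period 2. In RES it was 6.37 and 5.54. The medians of ADLIB in the 2 periods were thus close together, between those of RES.

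The 13-gene block, which holds ENSBTAG00000022028, ENSBTAG00000007662 and ENSBTAG00000031797, had another course. Its median r was 0.65 and its median level 32.1 CPM. Period 1 differences were 0.44 to 0.98 (median 0.58) and Period 2 differences were -1.22 to -0.28 (median -0.68), and in 7 of the 13 the Period 2 difference was the larger in size. The median level in ADLIB was 4.34 log2 CPM in Period 1 and 5.46 in Period 2, and in RES it was 4.95 and 4.63. Animals were widely spread in Period 2, with a median SD of 0.75 in ADLIB and 0.55 in RES compared with 0.34 and 0.42 in Period 1. The mean deviations of the 2 blocks had an r of -0.01 and a rho of -0.06 across the 40 animals.

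**Figure D5:**
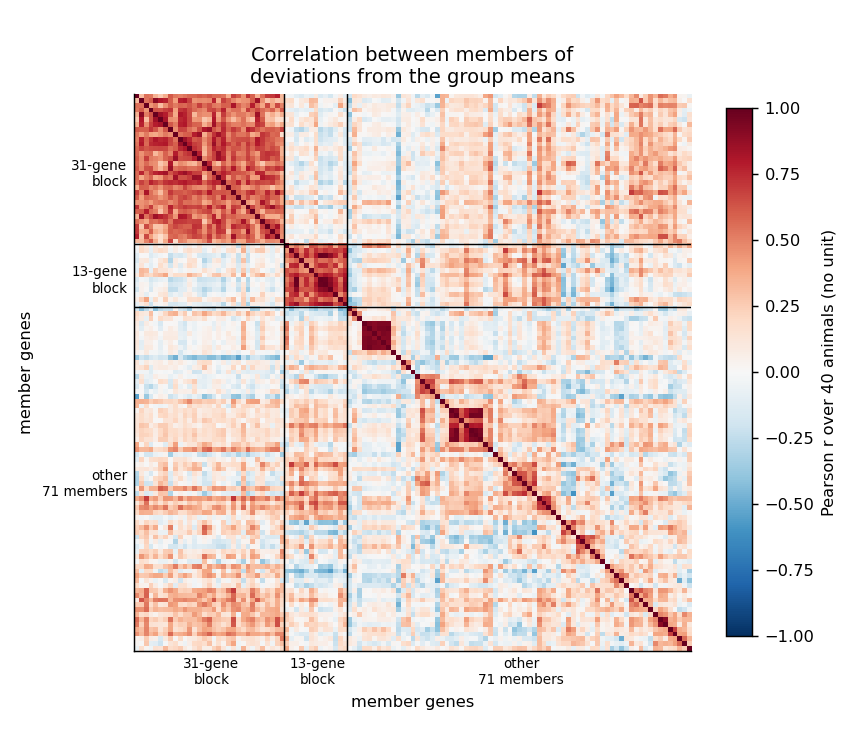
Pearson correlation over 40 animals between members, after subtraction of each gene's group means, on a scale from -1 (blue) to 1 (red) with no unit. Both axes list the 115 members in the same order, and black lines separate the 31-gene block, the 13-gene block and the other 71 members. The blocks form separate red squares with values near 0 between them, and small squares among the other members mark the 7- and 6-gene clusters.

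The other 71 members had a median r of 0.06, but held 3 smaller clusters. A cluster of 7 had a median r of 0.81, a median level of 135 CPM, and median differences of 0.57 and -0.45. A second cluster of 7, at a median of 6.96 CPM, had a median r of 0.47 and median differences of 0.48 and -0.35. A cluster of 6, at 5.35 to 6.10 CPM, had a median r of 0.93, and its presence among the members rested on 1 animal. RES replicate 3 of Period 1 was 2.13 above its group mean on the log2 scale over these 6 genes and RES replicate 2 was 1.53 below. Without RES replicate 3 their median Period 1 difference was 0.21 rather than 0.45, and 0 of the 6 met the rule.

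The genes outside the membership whose deviations most resembled a block were also examined, by Pearson r with the block's mean deviation over 40 animals. The 50 genes nearest the 31-gene block had r from 0.68 to 0.89. All 50 had a Period 1 difference above 0 and a Period 2 difference below 0, with medians of 0.38 and -0.20, and 14 had a Period 1 difference in the window of the rule. The 50 nearest the 13-gene block had r from 0.67 to 0.91, and 37 had differences of these signs, with medians of 0.13 and -0.34. Over all 12063 genes, 27.0% had these signs. For the mean deviation of all 115 members the 50 nearest genes outside had r from 0.62 to 0.76, and 45 had differences of these signs, with medians of 0.21 and -0.13. The members were chosen on group means that carry the deviations of single animals, so genes that deviate alike can be drawn to the same signs. All genes of an animal were also read from the same library with the same scaling factor, and the likeness is a description.

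The number that opens each library name, from 1 to 4, is unevenly spread over the groups, and the labels do not say what it stands for. In Period 1 the median member difference was 0.68, 0.62 and 0.50 within numbers 1, 3 and 4, and number 2 held no ADLIB animal. In Period 2 it was -0.50 within number 2 and -0.43 within number 3, but -0.10 within number 1 and -0.03 within number 4, each of which held 1 ADLIB animal. These were the ADLIB animals with the lowest mean level over the members. Within number 1 the 13-gene block was higher in RES by a median of 0.31 in Period 2, and within number 4 the 31-gene block differed by a median of 0.01. The part of the library number in the Period 2 differences was not tested.

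The percentage of reads counted on genes also differed between groups, with means of 75.8 ± 1.79 (SD, n = 10) in RES and 78.1 ± 1.07 in ADLIB in Period 1 and of 77.7 ± 1.55 and 76.6 ± 1.33 in Period 2. In ADLIB in Period 2 the mean level over the members was lower where this percentage was higher (Pearson r = -0.78, Spearman rho = -0.73, n = 10). Without the 2 animals farthest from the median percentage, r was -0.57. In the other groups r was 0.08 in ADLIB in Period 1, -0.21 in RES in Period 1 and 0.20 in RES in Period 2. With the percentage as a covariate, all 115 members were still higher in RES in Period 1 and 113 were still lower in Period 2, with median differences of 0.53 and -0.32, but only 69 of the 115 met both limits of the rule.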

How the data were processed

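Hepatic RNA of 40 bulls gave single-end reads, which the authors aligned to UMD3.1 with TopHat and counted with HTSeq. The read counts are deposited without normalisation, and rows that name no gene (a median of 23.0% of reads per animal) were left out. The deposited normalised signal equals the count times 1 factor per animal, near CPM of the TMM effective library size, and was made separately for each period. Per the submitters' processing notes CASAVA 1.4 was also used. Groups follow the labels. Counts were tested with edgeR 4.0.16 and DESeq2 1.42.0 in R 4.3.3, and the rule, correlations and average linkage were computed in Python with scipy. The tests were tried on simulated counts. No 2 animals of a group agreed within sampling noise (lowest chi-square per degree of freedom 18.0).

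The members and gene lists were chosen with earlier results of these data known. Printed identifiers are the 2 members with the largest Period 1 difference and the 2 with the lowest Period 2 difference. Gene lists of liver pathways, endoplasmic reticulum folding and cell type markers, and rules for naming genes by symbol, could not be used because identifiers were not paired with names. The cut for blocks and the numbers of nearest genes were chosen after the data had been seen. The alternatives are another pseudocount, scaling, centre, filter or threshold, blocks, a covariate and leaving out each animal.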

Additional observations from a re-analysis of the deposited data

Results flagged for a closer look

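Dixon's ratio was examined in 36 sets of 10 animals and singled out 1 animal in each of 2 sets, at a rate of about 1 in 20 for chance alone. ADLIB replicate 1 of Period 1 had a mean log2 level of 5.36 over the 31-gene block, below the next animal at 5.66. Reads on genes came to 15520237 in ADLIB replicate 5 of Period 2, above the next animal at 12133068. The diet effect differed between the periods by the interaction test of edgeR in 1121 of 11868 genes, of which 692 had a smaller ratio of RES to ADLIB in Period 2 and 86 were members, a contrast that the rule used.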

How the results depend on the processing

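The rule chose 82 to 170 genes under another pseudocount, scaling, centre or filter, with differences within library numbers, or with the percentage of reads on genes in the model, an alternative chosen after seeing the data, and 35 with limits of 0.5 and -0.35. The 170 came from log2 CPM with TMM over 40 animals and a prior count of 2. That setting replaced the pseudocount as well as the scale. Of the 115 members, 112 were kept with TMM over 40 animals, 92 with a pseudocount of 2 and 81 with total reads as the scale. The median in place of the mean kept 70, and differences within library numbers, which gave 82 genes, kept 51. Without 1 animal the count was 99 to 136, and 47 members were chosen whichever animal was left out. The fewest, 93, were kept without RES replicate 4 of Period 2. In Period 1 edgeR called 1243 genes (613 higher, 630 lower in RES), 394 when adjusted for the percentage of reads counted on genes, and 1007 to 1510 without 1 animal. Scaling by total reads gave 1184 higher and 378 lower and moved the median of all genes to 0.09 on the log2 scale. In Period 2 edgeR's quasi-likelihood test called 0 genes (1565 at an unadjusted p under 0.05), library number as a block 1, DESeq2 52, the exact test 53, and 0 to 1 without 1 animal. The interaction called 1121, 629 with that covariate, and 896 to 1351 without 1 animal. The causes were not tested. Replicate numbers shared by the groups are not stated to pair animals. Same-numbered animals deviated together at r over 0.1 in 4 of 10 pairs in each period, and 3 and 1 animals of 10 correlated best with their own number. With a replicate block the counts were 1458, 0 and 1156, and paired means give the same members. The signs of both differences of the 4 printed members held under every alternative run. Under some alternatives, however, ENSBTAG00000022028 and ENSBTAG00000017592 missed a limit of the rule. Fits for endoplasmic reticulum genes were not run because identifiers were not paired with names. In 4 members some animal had fewer than 4 reads, which limits their precision.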
